A study of Saccharomyces cerevisiae with 15 samples.

Results

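The genes described here are 45 meiosis and sporulation genes of Saccharomyces cerevisiae, measured in growing cells with altered RNA polymerase II. They were chosen by name: regulators of entry into meiosis, genes of meiotic recombination and chromosome pairing, and genes of spore formation. All 45 were among the 5449 genes tested, each read by 1 probe set of an Affymetrix array and none by a probe set shared with another gene.

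In yeast, meiosis and sporulation follow starvation of diploid cells that carry both mating types, and most of the genes for it are kept silent during growth. Ime1, the master regulator, turns the Ume6 repressor into an activator at the early genes, whose products break, pair and recombine the chromosomes. The middle genes then follow under Ndt80, and the late genes build the spore wall with its chitosan and dityrosine layers. The enzyme that transcribes all of them is RNA polymerase II, whose largest subunits are Rpb1 and Rpb2.

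The study profiled total RNA from 5 haploid strains of the W303 background, with 3 biological replicates per strain. The cultures were harvested in mid-log phase from liquid YPAD, a rich medium, and the labels give no growth temperature. The strains of mating type alpha were the wild type WT1B (W303-1BR5) and the RPB1 mutants rpb1-1 (WRP1-12A) and rpb1S751F (WSR8-5A). Those of mating type a were the wild type WT1A (W303-1AR5) and the RPB2 mutant rpb2-10 (WRP2). Every strain, the wild types included, carries RAD5 together with the marker alleles ura3-1, trp1-1, leu2-3 with leu2-112, his3-11 with his3-15, can1-100 and ade2-1. Each RNA polymerase II allele was present in 1 strain, so the allele and other differences of that strain cannot be told apart. The cells were thus of a kind in which most of these genes, though not the repressor gene UME6, are normally off. No diploid or sporulating sample was analysed here.

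The values are log2 expression levels. The 9 alpha arrays and the 6 a arrays had different medians over the tested genes (between 10.04 and 10.09 against 7.75 to 7.83), so each mutant was compared only with the wild type of its own mating type. In the wild types the label of mating type fitted the alpha markers: the 5 alpha-specific genes had mean levels between 11.74 and 13.66 in WT1B and between 1.84 and 6.79 in WT1A, on separate scales. In the mutants these markers moved. All 5 were lower in rpb1-1 than in WT1B, with log2 fold changes of -5.40 for the pheromone gene MF(ALPHA)2 and -3.73 for the a-factor receptor gene STE3. In rpb1S751F 3 were lower, MF(ALPHA)2 with -4.68. In rpb2-10, 1 was higher (STE3, 1.60) and 1 lower. Of the 7 a-specific genes, 3 were higher and 3 lower in rpb1-1, 6 higher and 1 lower in rpb1S751F, and 2 higher and 1 lower in rpb2-10. Of all genes tested, 61.4%, 64.3% and 57% passed the same threshold in rpb1-1, rpb1S751F and rpb2-10. Of the 7 haploid-specific genes, which diploid cells switch off, 4 were lower in rpb1-1, 2 were higher and 4 lower in rpb1S751F, and 1 was higher and 6 lower in rpb2-10. Their part in the results below was not tested.

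Signal was set against 1746 probe sets on the same arrays that were designed for genes of another yeast species. Their median was between 3.09 and 3.15 on the alpha arrays and between 1.14 and 1.20 on the a arrays, and their 95th percentile, taken here as the top of background, was 3.99 to 4.20 and 1.70 to 1.87. Most of the meiosis and sporulation genes gave a signal above it, but a low one. Above background on all 3 arrays of a group were 39 of 45 in WT1B, 32 in rpb1-1, 42 in rpb1S751F, 39 in WT1A and 40 in rpb2-10. With the 99th percentile in its place the counts were 31, 28, 38, 35 and 32. On single arrays 33 to 42 of the 45 passed the 95th percentile, while 97.7% to 98.9% of all tested genes did. The 45 were thus less often above background than genes in general.

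**Figure D1:**
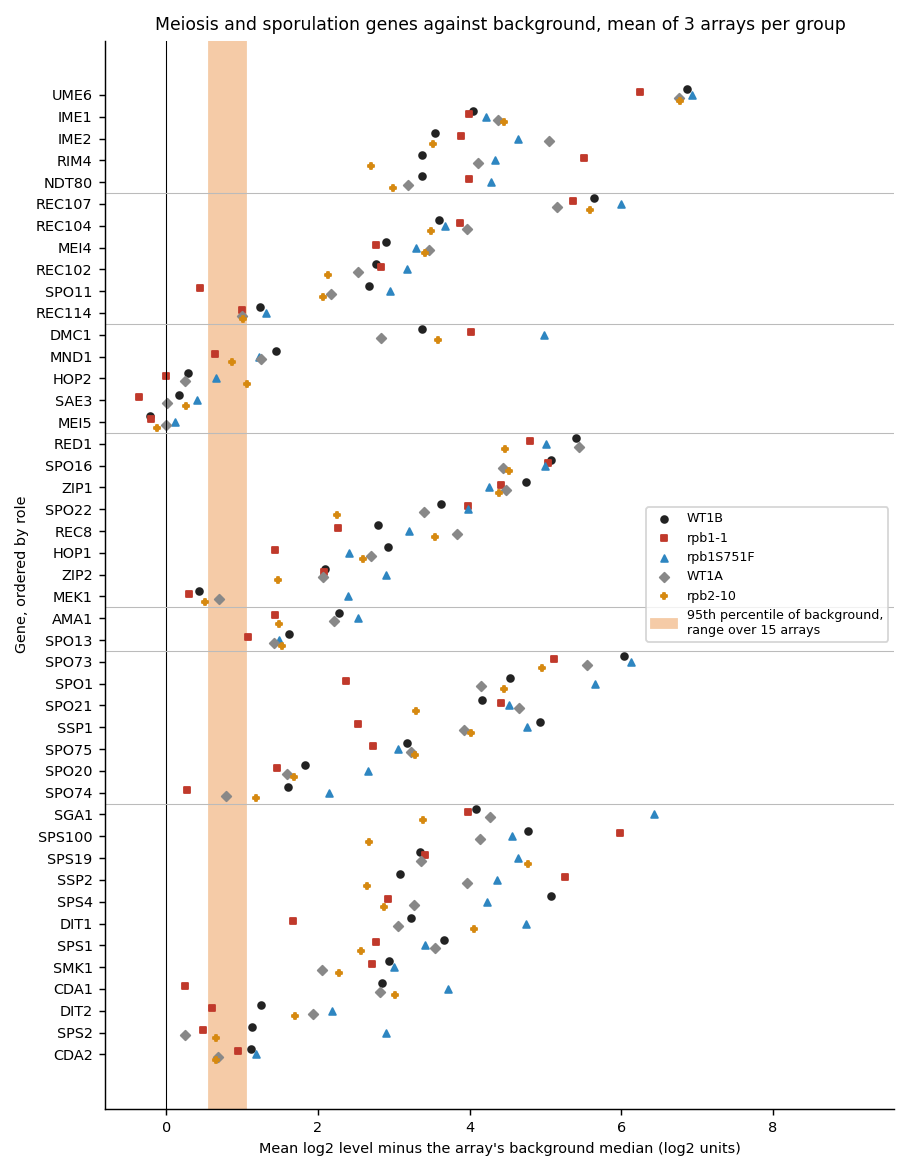
Mean log2 level of each of the 45 genes minus the background median of the array, by group (3 arrays each), with genes ordered by role. The shaded band spans the 95th percentile of the other-species probe sets over the 15 arrays; MEI5 and SAE3 sit at or below it in all 5 groups, and UME6 stands farthest above it.

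The plot of levels against background shows that most members sat low among the genes tested. Over the 15 arrays the median member stood between the 5.27 and 6.81 percentile of all tested genes, and 41 to 44 of the 45 were among the dimmest 25% of genes. The brightest probe set was that of UME6, with a mean level of 9.98 ± 0.16 (SD, n = 3) in WT1B, followed by those of SPO73 and REC107. The dimmest were those of MEI5, SAE3 and HOP2, whose products act in strand exchange. MEI5 and SAE3 were not above background on all 3 arrays of any group. Probe sets differ in how well they bind, so these positions do not rank the transcripts.

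Of the 45 fitted differences, 12 were above 0 and 33 below in rpb1-1, 34 and 11 in rpb1S751F, and 20 and 25 in rpb2-10. The median level over the 45 genes was 6.24 ± 0.17 (SD over 3 arrays) in WT1B, 5.80 ± 0.13 in rpb1-1 and 6.78 ± 0.20 in rpb1S751F. On the scale of the a arrays it was 4.34 ± 0.13 in WT1A and 3.96 ± 0.09 in rpb2-10. The dim end of all tested genes moved the same way: their 5th percentile was 5.89 in WT1B, 5.53 in rpb1-1, 6.29 in rpb1S751F, 3.91 in WT1A and 3.53 in rpb2-10. None of the 1746 other-species probe sets differed by 1 log2 unit or more between a mutant and its wild type. In bulk RNA, fewer cells that express a gene and less RNA per cell cannot be told apart.

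A gene is called here when the adjusted p of limma's moderated test, Benjamini-Hochberg over all 5449 genes, is below 0.05. In rpb1-1, 27 of the 45 genes were called, 60% against 61.4% of all genes tested: 7 were higher and 20 lower than in WT1B. In rpb1S751F, 26 were called, 57.8% against 64.3% of all genes: 22 were higher and 4 lower. In rpb2-10, 23 were called against WT1A, 51.1% beside 57% of all genes, with 8 higher and 15 lower. So in each mutant the share of these genes that changed was close to, or a little under, the share of genes in general, and the direction differed. Among all genes the split was 31.7% higher and 29.8% lower in rpb1-1, 36% and 28.3% in rpb1S751F, and 26.2% and 30.8% in rpb2-10. Among the dimmest 25% of genes, where most of the 45 lie, it was 27.2% and 33.2%, 42.7% and 24.1%, and 16.9% and 34%. The counts by role below rest on 2 to 12 genes each and are to be read beside these shares. The shares do not rank the mutants, since replicate spread differed between the mating types and the fit shares 1 variance per gene.

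The arrays compared without a model gave similar splits by direction. In rpb1-1 the 3 mutant and 3 wild-type arrays did not overlap for 27 of the 45 genes, 8 with the mutant higher and 19 with it lower. Of all genes 63.2% had no overlap, 32.2% higher and 31% lower. In rpb1S751F it was 27 as well, 23 higher and 4 lower, beside 62.5% of all genes (35% higher, 27.5% lower). In rpb2-10 there were 28, of which 11 were higher and 17 lower, beside 76.1% of all genes (34% higher, 42% lower). By this measure rpb2-10 had the largest share of all genes, whereas by calls it had the smallest.

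The median log2 fold change over the 45 genes was -0.27 in rpb1-1, 0.34 in rpb1S751F and -0.06 in rpb2-10, beside -0.01, 0.04 and -0.05 over all genes. The size of the split, and in rpb2-10 its direction, depended on whether the arrays were quantile-normalized again. After the arrays of each mating type were quantile-normalized once more, an alternative chosen after the data were seen, 12 genes were higher and 14 lower in rpb1-1, 15 and 11 in rpb1S751F, and 13 and 10 in rpb2-10. In rpb2-10 this turned the balance from mostly lower to mostly higher. The medians over the 45 genes became -0.05, 0.03 and 0.13. That step gives the arrays of a mating type the same distribution of gene levels, so a shift shared by the dim genes is largely removed by design. With each array centred on its median gene instead, the medians were -0.31, 0.33 and 0.008. Centred on the other-species probe sets, they were -0.29, 0.35 and -0.10. In these 3 comparisons, every called change of 1 log2 unit or more among the 45 genes kept its direction and its call under the repeated quantile normalization. It is called re-scaling from here on. Smaller calls did not always, and those lost are named with their gene.

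**Figure D2:**
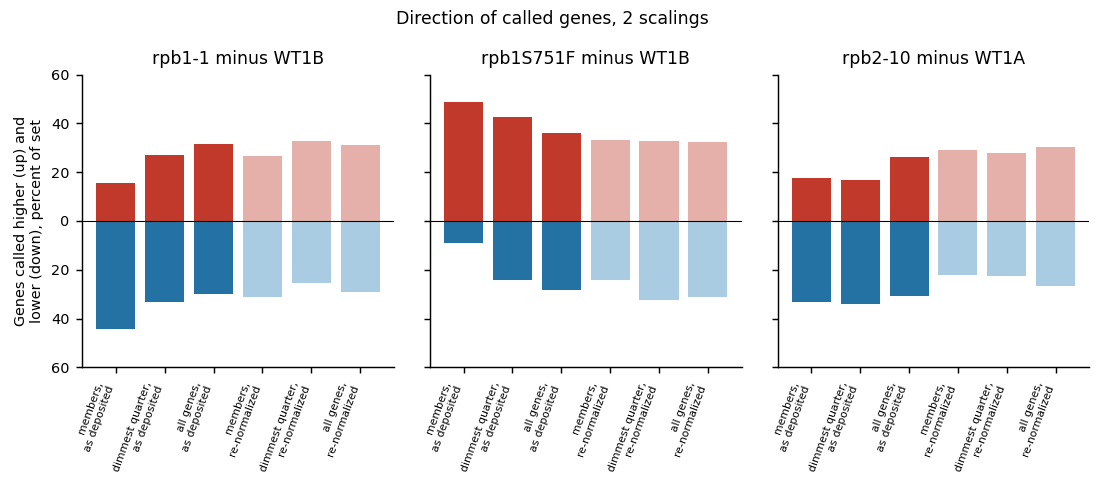
Percent of genes called higher (bars up) and lower (bars down) in each mutant, for the 45 genes, the dimmest 25% of all genes and all 5449 genes, as deposited and after quantile normalization within each mating type. As deposited, 20 of the 45 were lower in rpb1-1 and 22 higher in rpb1S751F; re-normalized, the splits were 12 to 14 and 15 to 11.

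Changes of 1 log2 unit or more were seen in 11 of the 45 genes in rpb1-1, 9 in rpb1S751F and 8 in rpb2-10. For rpb1-1, 3 of these were higher and 8 lower, where 11.4% of all genes passed that size. All 9 in rpb1S751F were higher, where 11.2% of all genes passed, and in rpb2-10, where 6.46% did, 2 were higher and 6 lower. Among the dimmest 25% of genes the shares past that size were 19.7%, 21.8% and 11.3%. The plot of fold changes by role shows the 3 mutants side by side.

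**Figure D3:**
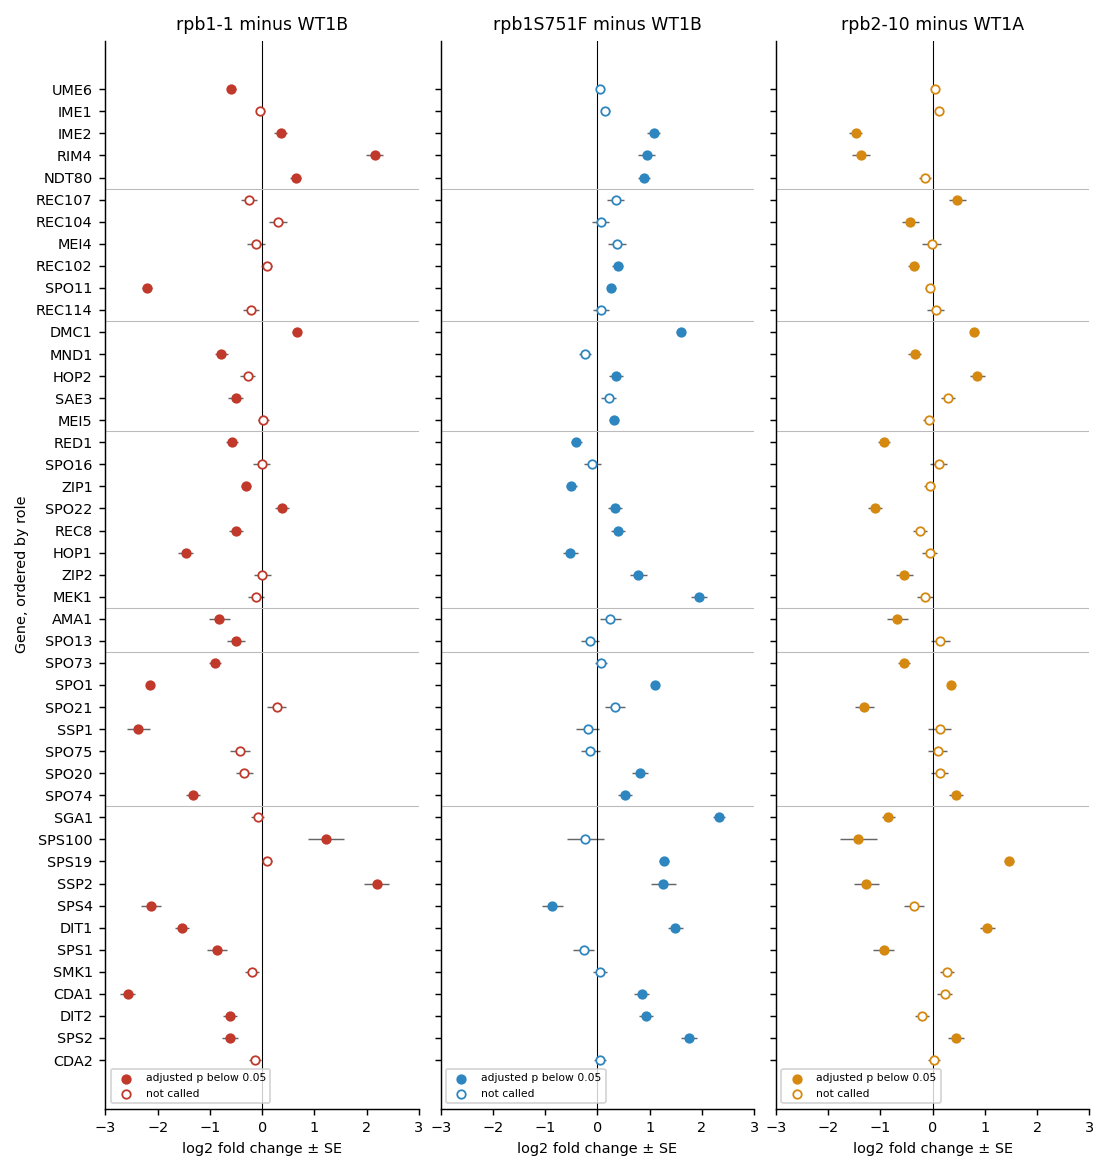
Log2 fold change of each gene against the wild type of the same mating type, with its standard error, in rpb1-1, rpb1S751F and rpb2-10 (3 arrays against 3). Filled points have an adjusted p below 0.05, and the fitted values run from -2.57 (CDA1 in rpb1-1) to 2.33 (SGA1 in rpb1S751F).

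Among the regulators, RIM4 was called in all 3 mutants. RIM4 encodes an RNA-binding protein needed for expression of the early and middle genes. Its log2 levels were 6.23, 6.49 and 6.78 on the WT1B arrays, 8.44, 8.97 and 8.54 in rpb1-1 and 7.23, 7.71 and 7.39 in rpb1S751F. On the a arrays they were 5.34, 5.36 and 5.06 in WT1A and 3.82, 3.83 and 4.0 in rpb2-10. The 3 rpb1-1 arrays lay far above WT1B, the rpb1S751F arrays lay between them, and all rpb2-10 arrays lay below WT1A. The log2 fold change was 2.15 ± 0.17 (adjusted p = 1.59e-07) in rpb1-1, 0.94 ± 0.17 (adjusted p = 0.000261) in rpb1S751F and -1.37 ± 0.17 (adjusted p = 1.55e-05) in rpb2-10, where ± is the standard error of the fit here and below.

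IME2, which encodes the kinase that drives entry into the meiotic divisions, moved in the same directions. Its levels were 6.66, 6.57 and 6.79 in WT1B, 6.93, 7.21 and 6.95 in rpb1-1 and 7.54, 7.87 and 7.84 in rpb1S751F. In the a strains they were 6.28, 6.31 and 5.98 in WT1A and 4.51, 4.83 and 4.79 in rpb2-10. It rose by 1.08 ± 0.13 (adjusted p = 7.92e-06) in rpb1S751F and fell in rpb2-10, with a log2 fold change of -1.48 ± 0.13 (adjusted p = 8.99e-07). The rise in rpb1-1 was small at 0.36 ± 0.13 (adjusted p = 0.0241), and its call was lost without WT1B replicate 1 (0.35), WT1B replicate 2 (0.31) or rpb1-1 replicate 2 (0.27). NDT80, the transcription factor of the middle genes, rose in both RPB1 mutants, by 0.64 ± 0.11 in rpb1-1 and 0.89 ± 0.11 in rpb1S751F (0.54 re-scaled), while in rpb2-10 its difference of -0.15 ± 0.11 was not called.

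The master regulator itself was not called in any mutant. IME1 levels were 7.23, 7.19 and 7.08 in WT1B, 7.05, 7.15 and 7.19 in rpb1-1 and 7.13, 7.5 and 7.31 in rpb1S751F, and 5.47, 5.57 and 5.50 in WT1A against 5.69, 5.62 and 5.60 in rpb2-10. The log2 differences were -0.04 ± 0.08 (adjusted p = 0.735), 0.15 ± 0.08 (adjusted p = 0.128) and 0.12 ± 0.08 (adjusted p = 0.23). Re-scaled, IME1 was called lower in rpb1S751F (-0.20, adjusted p = 0.0433) and without rpb1S751F replicate 1 it was called higher there (0.24), so no direction can be given for it in that mutant. In rpb2-10 its value stayed above 0 under the alternatives tried (0.079 to 0.33) and was called higher when re-scaled (0.31, adjusted p = 0.00479), when all 15 arrays were quantile-normalized together (0.33) and with array weights (0.13). UME6, which encodes the DNA-binding repressor of the early genes, fell in rpb1-1 with a log2 fold change of -0.59 ± 0.08. Its differences in rpb1S751F (0.05) and rpb2-10 (0.05) were not called. Of these 5 regulators, 3 rose and 1 fell in rpb1-1, 3 rose in rpb1S751F and 2 fell in rpb2-10.

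The genes for formation of the DNA breaks that start recombination included 1 called in rpb1-1, SPO11. SPO11 encodes the topoisomerase-like protein that makes the breaks. Its levels were 5.79, 5.86 and 5.73 in WT1B, 3.56, 3.49 and 3.72 in rpb1-1 and 5.92, 6.13 and 6.14 in rpb1S751F. All 3 rpb1-1 arrays were within background, so the fall was at least 3.21-fold, with a fitted log2 fold change of -2.21 ± 0.09 (adjusted p = 5.03e-10). The small rise in rpb1S751F, 0.27 ± 0.09 (adjusted p = 0.0162), turned to -0.16 and was not called when re-scaled, and its call was lost without WT1B replicate 3 (0.24), rpb1S751F replicate 2 (0.23) or rpb1S751F replicate 3 (0.23). In rpb2-10 the difference of -0.05 ± 0.09 was not called.

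The other genes of the group encode the proteins that work with Spo11 at the break sites. REC102 was called higher in rpb1S751F (0.39 ± 0.11) and lower in rpb2-10 (-0.36 ± 0.11). Both calls were lost when re-scaled, at -0.03 each, and the second also without WT1A replicate 1 (-0.31). In rpb2-10, REC107, also known as MER2, was called higher (0.47 ± 0.16) and REC104 lower (-0.43 ± 0.16). The REC107 call was lost without WT1A replicate 1 (0.40), rpb2-10 replicate 1 (0.43) or rpb2-10 replicate 2 (0.44). That of REC104 was lost when re-scaled (-0.22) and without replicate 1 or 2 of WT1A (-0.43 and -0.32) or of rpb2-10 (-0.36 and -0.44). REC114 and MEI4 were not called in any mutant. Over the 6 genes, 1 fell in rpb1-1, 2 rose in rpb1S751F, and 1 rose and 2 fell in rpb2-10.

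DMC1 was the 1 gene of the 45 called higher in all 3 mutants. It encodes the meiotic recombinase that pairs the broken strand with the homologous chromosome. Its levels were 6.45, 6.61 and 6.42 in WT1B, 7.11, 7.21 and 7.16 in rpb1-1 and 7.95, 8.22 and 8.09 in rpb1S751F. On the a arrays they were 4.04, 4.04 and 3.84 in WT1A and 4.67, 4.77 and 4.86 in rpb2-10. In each comparison every mutant array was above every wild-type array. The log2 fold changes were 0.66 ± 0.09 (adjusted p = 1.71e-05), 1.59 ± 0.09 (adjusted p = 8.9e-09) and 0.79 ± 0.09 (adjusted p = 5.64e-06).

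Its partner genes were mostly near background. The Hop2-Mnd1 complex helps Dmc1 to invade the homologous strand. HOP2 was at background on all arrays of WT1A, with levels of 1.67, 1.29 and 1.24, and above it in rpb2-10, at 2.43, 1.90 and 2.41. That is a rise of at least 1.38-fold, with a fitted log2 fold change of 0.85 ± 0.14. MND1 was within background in rpb1-1 on all arrays and was lower than in WT1B by at least 1.37-fold (log2 fold change -0.78 ± 0.12, -0.44 re-scaled). Its call in rpb2-10 (-0.34 ± 0.12) was lost when re-scaled (-0.16) and without WT1A replicate 3 (-0.28), rpb2-10 replicate 1 (-0.30) or rpb2-10 replicate 3 (-0.35). MEI5 and SAE3 encode the complex that loads Dmc1. The calls for SAE3 in rpb1-1 (-0.50 ± 0.14) and for HOP2 and MEI5 in rpb1S751F (0.36 ± 0.14 and 0.31 ± 0.10) compare groups that were both at background, so they give no measured level. The HOP2 call was lost when re-scaled (0.12, adjusted p = 0.494) and without WT1B replicate 1 (0.30), WT1B replicate 2 (0.36), rpb1S751F replicate 2 (0.37) or rpb1S751F replicate 3 (0.29), and that of MEI5 without WT1B replicate 1 (0.23).

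Genes of the meiotic chromosome axis and of synapsis moved in different directions from each other. HOP1 and RED1 encode axis proteins. HOP1 levels were 5.93, 6.17 and 6.03 in WT1B, 4.30, 4.59 and 4.84 in rpb1-1 and 5.27, 5.86 and 5.43 in rpb1S751F. All 6 mutant arrays were below WT1B, and the log2 fold change was -1.47 ± 0.15 (adjusted p = 1.72e-06) in rpb1-1 and -0.52 ± 0.15 (adjusted p = 0.00708) in rpb1S751F (-1.02 re-scaled); in rpb2-10 the value of -0.06 ± 0.15 was not called. RED1 was the 1 gene of the 45 called lower in all 3 mutants, with log2 fold changes of -0.58 ± 0.11, -0.40 ± 0.11 and -0.93 ± 0.11. Its levels in the last comparison were 6.64, 6.54 and 6.57 in WT1A and 5.51, 5.69 and 5.76 in rpb2-10, with no overlap.

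MEK1, the kinase that acts on the axis to direct repair to the homologous chromosome, was above background on all arrays in 1 of the 5 groups. Its levels were 3.60, 3.70 and 3.38 in WT1B, 3.29, 3.66 and 3.38 in rpb1-1 and 5.23, 5.73 and 5.53 in rpb1S751F. The WT1B and rpb1-1 arrays were all within background and the rpb1S751F arrays all above it. The rise in rpb1S751F was therefore at least 2.63-fold, with a fitted log2 fold change of 1.94 ± 0.15 (adjusted p = 2.58e-07). In the a strains, where 2 of the 3 WT1A arrays and none of the rpb2-10 arrays were above background, the difference of -0.15 ± 0.15 was not called.

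The remaining genes of this role encode the meiotic cohesin subunit (REC8), the central element of the synaptonemal complex (ZIP1) and proteins that start synapsis at crossover sites (ZIP2, SPO16 and SPO22, also known as ZIP4). SPO22 levels were 4.53, 4.67 and 4.41 in WT1A and 3.58, 3.21 and 3.52 in rpb2-10, where it fell, with a log2 fold change of -1.1 ± 0.14 (adjusted p = 1.94e-05). It was called slightly higher in rpb1-1 (0.38 ± 0.14) and rpb1S751F (0.34 ± 0.14). The first call was lost without WT1B replicate 1 (0.35), WT1B replicate 3 (0.34) or rpb1-1 replicate 3 (0.20). The second was lost without WT1B replicate 1 or 3 (0.31 each) and without any 1 rpb1S751F array (0.30, 0.35 and 0.37), and turned to -0.08 when re-scaled.

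ZIP2 was called higher in rpb1S751F (0.78 ± 0.16) and lower in rpb2-10 (-0.54 ± 0.16), both lost when re-scaled (0.32 and -0.28). ZIP1 fell in rpb1S751F, with a log2 fold change of -0.50 ± 0.10 (-0.85 re-scaled). Its call in rpb1-1 (-0.31 ± 0.10) was lost when re-scaled (-0.22) and without WT1B replicate 1 (-0.27), WT1B replicate 3 (-0.29), rpb1-1 replicate 1 (-0.26) or rpb1-1 replicate 2 (-0.23). REC8 was called lower in rpb1-1 (-0.50 ± 0.13) and higher in rpb1S751F (0.39 ± 0.13), and both were lost when re-scaled (-0.13 and -0.00084). The latter call was also lost without WT1B replicate 1 (0.35), WT1B replicate 3 (0.35) or rpb1S751F replicate 2 (0.29). SPO16 was not called in any mutant. Over the 8 genes, 1 rose and 4 fell in rpb1-1, 4 rose and 3 fell in rpb1S751F, and 3 fell in rpb2-10.

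Both genes of the meiotic divisions were lower in rpb1-1. AMA1, which encodes a meiosis-specific activator of the anaphase-promoting complex, was called there with a log2 fold change of -0.82 ± 0.20 and was also lower in rpb2-10 (-0.68 ± 0.20). SPO13, which helps sister chromatids stay together in the first division, was -0.51 ± 0.17 in rpb1-1. The calls for AMA1 were lost when re-scaled (-0.42 in both mutants), as was that for SPO13 (-0.05). The SPO13 call was also lost without WT1B replicate 1 (-0.45), WT1B replicate 2 (-0.38) or rpb1-1 replicate 1 (-0.44). Neither gene was called in rpb1S751F.

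Genes of the prospore membrane, the double membrane that grows around each nucleus, were called lower in rpb1-1 for 4 of 7 and higher in rpb1S751F for 3. SPO1 encodes a phospholipase-like protein needed for this membrane. Its levels were 7.71, 7.62 and 7.64 in WT1B, 5.63, 5.39 and 5.53 in rpb1-1 and 8.81, 8.75 and 8.71 in rpb1S751F. The 3 groups did not overlap: rpb1-1 was lowest and rpb1S751F highest. The log2 fold change was -2.14 ± 0.07 (adjusted p = 5.7e-11) in rpb1-1, which is 4.41-fold, and 1.1 ± 0.07 (adjusted p = 2.45e-08) in rpb1S751F; in rpb2-10 it was 0.34 ± 0.07 (0.54 re-scaled).

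SSP1, a component of the leading edge of the growing membrane, had levels of 8.34, 8.12 and 7.67 in WT1B and 5.56, 5.24 and 6.23 in rpb1-1, with no overlap. Its log2 fold change there was -2.37 ± 0.22 (adjusted p = 7.84e-07), and it was not called in rpb1S751F (-0.19 ± 0.22) or rpb2-10 (0.13 ± 0.22). SPO74 and SPO21 encode parts of the meiotic outer plaque of the spindle pole body, from which the membrane starts. SPO74 fell to background in rpb1-1, by at least 1.54-fold, and was called higher in rpb1S751F (0.52 ± 0.13) and rpb2-10 (0.45 ± 0.13). The call in rpb1S751F was lost when re-scaled (0.03), and that in rpb2-10 without rpb2-10 replicate 3 (0.37). SPO21 fell in rpb2-10, from 5.92, 5.94 and 5.50 in WT1A to 4.34, 4.55 and 4.55, a log2 fold change of -1.31 ± 0.18 (adjusted p = 5.22e-05). It was not called in either RPB1 mutant.

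Of the others, SPO73, which acts in extension of the membrane, fell in rpb1-1 (-0.90 ± 0.12) and rpb2-10 (-0.55 ± 0.12). SPO20, the SNARE protein that fuses vesicles into the membrane, rose in rpb1S751F (0.82 ± 0.16, 0.35 re-scaled). SPO75 was not called in any mutant. Over the 7 genes, 4 fell in rpb1-1, 3 rose in rpb1S751F, and 2 rose and 2 fell in rpb2-10.

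CDA1 fell to background in rpb1-1. CDA1 and CDA2 encode the chitin deacetylases that make the chitosan layer of the spore wall. CDA1 levels were 5.88, 5.91 and 6.10 in WT1B, 3.40, 3.47 and 3.31 in rpb1-1 and 6.42, 7.21 and 6.81 in rpb1S751F. All rpb1-1 arrays were within background and all rpb1S751F arrays above WT1B. The fall in rpb1-1 was at least 3.61-fold, with a fitted log2 fold change of -2.57 ± 0.14 (adjusted p = 1.03e-08), and the log2 rise in rpb1S751F was 0.85 ± 0.14 (adjusted p = 0.000207), or 0.47 re-scaled. CDA1 was not called in rpb2-10 (0.23 ± 0.14), and CDA2 was not called in any mutant.

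DIT1 and DIT2 encode the enzymes that make dityrosine for the outermost spore wall layer and lie side by side, transcribed away from each other. DIT1 levels were 6.42, 6.23 and 6.41 in WT1B, 4.45, 4.82 and 5.18 in rpb1-1 and 7.98, 7.73 and 7.83 in rpb1S751F. On the a arrays they were 4.14, 4.25 and 4.21 in WT1A and 5.32, 5.28 and 5.14 in rpb2-10. It was lowest in rpb1-1 on every array and above wild type in the other 2 mutants, with log2 fold changes of -1.54 ± 0.14 (adjusted p = 6.98e-07), 1.49 ± 0.14 (adjusted p = 1.13e-06) and 1.05 ± 0.14 (adjusted p = 3.46e-05). DIT2 followed in the RPB1 mutants, at -0.62 ± 0.14 with all rpb1-1 arrays within background, and 0.93 ± 0.14 in rpb1S751F; in rpb2-10 its -0.20 ± 0.14 was not called. Re-scaled, the DIT2 values were -0.31, no longer called, and 0.43.

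Signalling genes of spore wall assembly did not move as 1 group. SMK1 encodes the meiosis-specific MAP kinase of the pathway, SSP2 its activator, and SPS1 a kinase of the STE20 family needed for the same steps. SSP2 levels were 5.98, 6.09 and 6.55 in WT1B, 8.64, 8.56 and 7.99 in rpb1-1 and 7.06, 7.67 and 7.67 in rpb1S751F, with all mutant arrays above WT1B. In rpb2-10 they were 3.90, 3.42 and 4.19 against 5.06, 5.34 and 4.92 in WT1A, all lower. The log2 fold changes were 2.19 ± 0.24 (adjusted p = 3.95e-06), 1.26 ± 0.24 (adjusted p = 0.000479) and -1.27 ± 0.24 (adjusted p = 0.000562). SPS1 fell in rpb1-1 (-0.87 ± 0.20, -0.57 re-scaled) and rpb2-10 (-0.94 ± 0.20, -0.61 re-scaled), while its -0.27 ± 0.20 in rpb1S751F was not called, nor was SMK1 in any mutant.

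**Figure D4:**
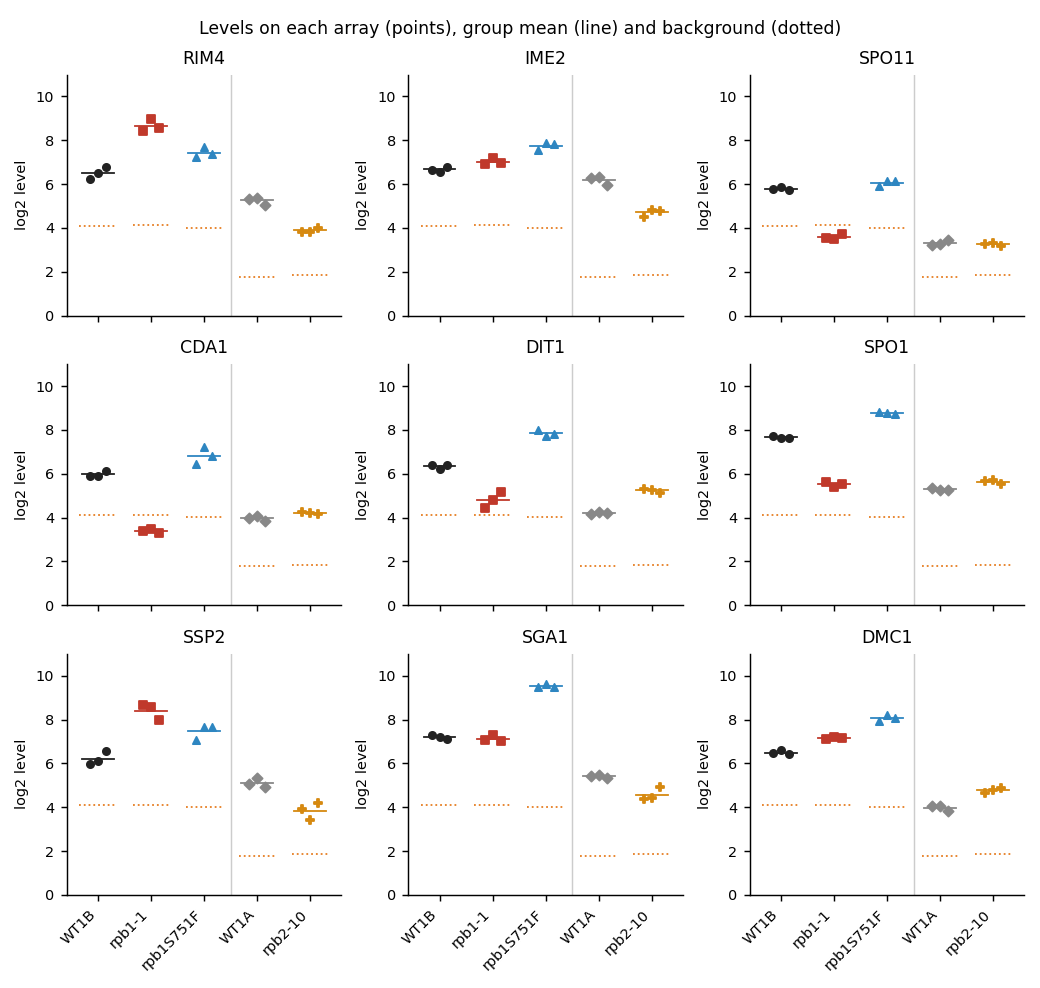
Log2 level on each of the 15 arrays (points), with the group mean (solid line) and the 95th percentile of the other-species probe sets (dotted line), for 9 genes whose changes are described in the text. The alpha arrays (left of the vertical line) and the a arrays (right) are on separate scales; SPO11 and CDA1 lie below the background line in rpb1-1, where RIM4 and SSP2 are higher than in WT1B.

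The plot of levels on each array shows SGA1 standing apart in rpb1S751F. SGA1 encodes the glucoamylase that breaks down glycogen during sporulation. Its levels were 7.29, 7.22 and 7.12 in WT1B, 7.07, 7.29 and 7.01 in rpb1-1 and 9.51, 9.63 and 9.49 in rpb1S751F. The rpb1S751F arrays stood apart from the other 6, with a log2 fold change of 2.33 ± 0.12 (adjusted p = 8.32e-09), that is 5.02-fold, while the rpb1-1 value of -0.09 ± 0.12 was not called. In rpb2-10 SGA1 fell, with -0.85 ± 0.12 (adjusted p = 6.68e-05).

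Late genes that carry the SPS name also differed from each other. SPS19, which encodes a peroxisomal enzyme of fatty acid oxidation, had levels of 4.41, 4.57 and 4.51 in WT1A and 6.02, 6.0 and 5.86 in rpb2-10, its rise there being 1.46 ± 0.09 (adjusted p = 9.99e-08) on the log2 scale. In rpb1S751F it rose by 1.28 ± 0.09 (adjusted p = 1.48e-07), and in rpb1-1 its 0.09 ± 0.09 was not called. SPS2, which acts in organisation of the spore wall, rose in rpb1S751F by 1.76 ± 0.15 (adjusted p = 6.26e-07), from 4.20, 4.12 and 4.43 in WT1B to 5.81, 6.02 and 6.20. In rpb1-1 it was at background on all arrays and lower by at least 1.1-fold, a call that was lost when re-scaled (-0.31). In rpb2-10 SPS2 was called higher (0.45 ± 0.15), though not without WT1A replicate 3 (0.38) or rpb2-10 replicate 1 (0.35), and it was above background on 1 of the 3 rpb2-10 arrays and on none in WT1A.

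SPS4 fell in both RPB1 mutants, from 8.03, 8.33 and 8.21 in WT1B to 6.47, 6.14 and 5.60 in rpb1-1 and 7.05, 7.58 and 7.36 in rpb1S751F. The log2 fold changes were -2.12 ± 0.20 (adjusted p = 8.36e-07) and -0.86 ± 0.20 (adjusted p = 0.00184), with no overlap of arrays, and the -0.35 ± 0.20 in rpb2-10 was not called. SPS100, which acts in maturation of the spore wall, had levels of 8.22, 8.19 and 7.28 in WT1B and 10.18, 8.65 and 8.53 in rpb1-1. The first rpb1-1 array stood above its 2 fellows: the log2 fold change was 1.22 ± 0.35 (adjusted p = 0.00853) with it and 0.69 (adjusted p = 0.0196) without it. In rpb2-10 SPS100 fell, with -1.42 ± 0.35 (adjusted p = 0.00383). Over the 12 genes of the spore wall and the late phase, 2 rose and 6 fell in rpb1-1, 7 rose and 1 fell in rpb1S751F, and 3 rose and 4 fell in rpb2-10.

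The 2 RPB1 alleles were also compared with each other directly. Between rpb1S751F and rpb1-1, 32 of the 45 genes were called, 71.1% against 56.6% of all genes. Of these, 29 were higher in rpb1S751F and 3 higher in rpb1-1. Among the 29, HOP2, MEI5 and SAE3 were at background on every array of both mutants, so their calls give no measured level. Of the dimmest 25% of all genes, 41% were higher and 21.9% lower in the same contrast. Changes of 1 log2 unit or more numbered 16, where 10.2% of all genes passed that size, and the arrays did not overlap for 32 genes, where 56.7% of all genes had none. After quantile normalization within the mating type, the split of the 45 was 18 to 12. The 3 genes lower in rpb1S751F were RIM4, SSP2 and SPS100, with log2 differences of -1.21 ± 0.17, -0.93 ± 0.24 and -1.45 ± 0.35. CDA1, at background in rpb1-1, was at least 6.50-fold higher in rpb1S751F, with a fitted log2 difference of 3.42 ± 0.14 (adjusted p = 5.64e-10). SPO1, above background in both mutants, differed by 3.24 ± 0.07 (adjusted p = 8.31e-13) and DIT1 by 3.03 ± 0.14 (adjusted p = 1.21e-09). The SPS100 difference was -0.92 without rpb1-1 replicate 1.

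In both RPB1 mutants, compared with the same WT1B arrays, 18 genes were called. Of these, 6 were higher in both (IME2, NDT80, RIM4, DMC1, SPO22 and SSP2), 4 lower in both (HOP1, RED1, ZIP1 and SPS4), and 8 had opposite directions. The same tally was not made over all genes or over the dimmest genes. Whether 8 of 18 is more than among genes in general was therefore not tested. The 8 were SPO11, REC8, SPO1, SPO74, SPS2, DIT1, DIT2 and CDA1, all lower in rpb1-1 and higher in rpb1S751F, and the direct difference between the alleles was called for each of them. Re-scaled, opposite calls remained for SPO1, DIT1 and CDA1, the allele difference of REC8 was no longer called (0.13), and those of SPO74 and DIT2 were 1.13 and 0.74. For SPO11, SPS2, DIT2 and SPO74 the rpb1-1 arrays were at background, as for CDA1, so the allele difference was at least 3.86-fold, 3.72-fold, 2.27-fold and 2.20-fold.

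The effect of each RPB1 allele, mutant minus WT1B, was set against the effect of rpb2-10, mutant minus WT1A, as a difference of differences. For rpb1-1, 27 of the 45 genes had a called difference in effect, 60% against 56.7% of all genes: 10 had the higher value in rpb1-1 and 17 in rpb2-10. For rpb1S751F, 23 had one, 51.1% against 51.7% of all genes: 22 had the higher value in rpb1S751F and 1 in rpb2-10. After quantile normalization within each mating type these splits were 11 to 16 and 13 to 12. The genes IME2, RIM4, SPO22 and SSP2 were higher in both RPB1 mutants and lower in rpb2-10. Their effects in rpb1-1 and rpb2-10 differed by 1.84 ± 0.18 (adjusted p = 2.01e-06), 3.52 ± 0.23 (adjusted p = 8.11e-08), 1.48 ± 0.19 (adjusted p = 2.78e-05) and 3.46 ± 0.34 (adjusted p = 2.22e-06) on the log2 scale. Those in rpb1S751F and rpb2-10 differed by 2.56 ± 0.18, 2.32 ± 0.23, 1.44 ± 0.19 (0.68 re-scaled) and 2.53 ± 0.34. The allele and the mating type of the strain cannot be told apart in this contrast.

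Across the 3 mutants, 7 of the 45 genes were called in none (IME1, REC114, MEI4, SPO16, SPO75, SMK1 and CDA2), 10 in 1 mutant, 18 in 2 and 10 in all 3. In percent these were 15.6, 22.2, 40 and 22.2, beside 10, 24.2, 38.9 and 26.9 of all genes, so the tally was near that of genes in general. Of the 10 called in all 3, DMC1 was higher throughout and RED1 lower throughout. The other 8 were IME2, RIM4, SPO22 and SSP2, higher in both RPB1 mutants and lower in rpb2-10, and SPO1, SPO74, SPS2 and DIT1, lower in rpb1-1 and higher in the other mutants. As given above, SPO22, SPO74 and SPS2 each lost 1 of these calls when re-scaled.

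The rest of the pathway was read from 60 further genes in 4 lists of roles. In rpb1-1, 41 of them were called (68.3%, beside 61.4% of all genes), 11 higher and 30 lower. In rpb1S751F the 41 called (68.3%, beside 64.3%) were 32 higher and 9 lower, and in rpb2-10 the 34 called (56.7%, beside 57%) were 9 higher and 25 lower. Pooled over the lists, these shares were near those of all genes. By list they ran from 44.4% to 82.8% in rpb1-1, from 46.2% to 88.9% in rpb1S751F and from 46.2% to 66.7% in rpb2-10. Re-scaled, the splits were 15 to 23, 29 to 14 and 12 to 18. The dot plot of these lists shows that the lists did not all lean alike: in rpb1-1 the called entry regulators were higher while most spore formation genes were lower, and in rpb1S751F more repressors were lower than higher.

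**Figure D5:**
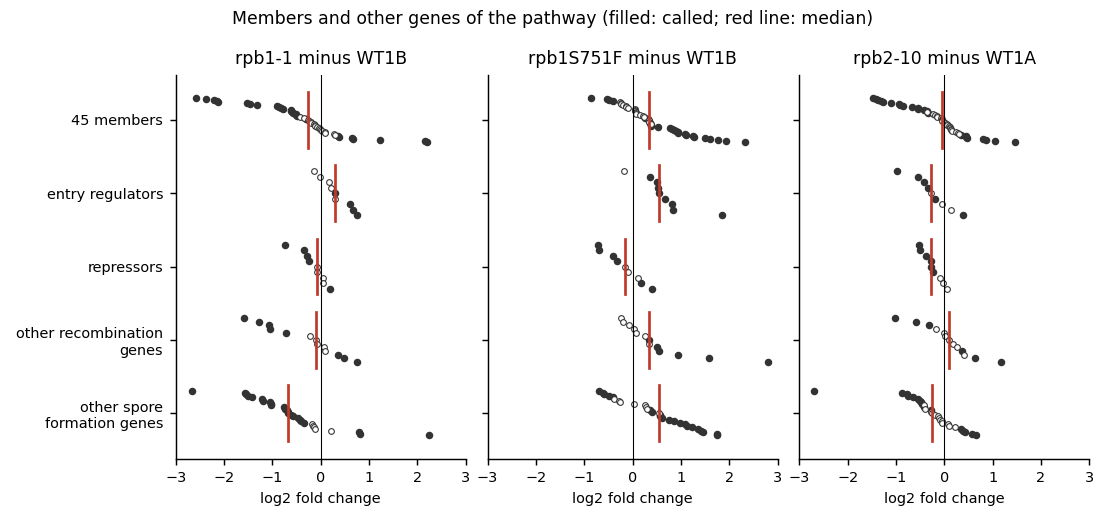
Log2 fold change of single genes in each mutant against its wild type, for the 45 genes and 4 lists of other pathway genes (filled points have an adjusted p below 0.05, the red line is the median of the list). Among the 29 other spore formation genes, 21 were lower in rpb1-1, 16 higher in rpb1S751F and 11 lower in rpb2-10.

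Of the 29 other spore formation genes, 3 were higher and 21 lower in rpb1-1, 16 and 5 in rpb1S751F, and 5 and 11 in rpb2-10. The called shares were 82.8%, 72.4% and 55.2%, beside 61.4%, 64.3% and 57% of all genes. GIP1, which directs the Glc7 phosphatase to the forming spore wall, fell in rpb1-1 with a log2 fold change of -2.67 ± 0.07 (adjusted p = 1.81e-11). SPR6 and ISC10, both expressed in sporulation, fell there too (-1.21 ± 0.08 and -1.05 ± 0.06). GIP1, SPR6 and ISC10 were also called lower in rpb1S751F, by less (-0.50, -0.40 and -0.70). In rpb1S751F the sporulation septin gene SPR28 rose by 1.74 ± 0.10, the glucan elongation gene GAS4 by 1.75 ± 0.11 and SHC1, an activator of chitin synthesis, by 1.23 ± 0.10. In rpb2-10, SPO19, a meiosis-specific prospore protein, fell with -2.69 ± 0.26 (adjusted p = 2.62e-06), beside ISC10 (-0.78 ± 0.06) and SHC1 (-0.87 ± 0.10). SPO19 was also called lower in rpb1-1 (-1.02, and -0.67 at its smallest under the alternatives).

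Of 13 other meiosis-specific recombination genes, 3 were higher and 5 lower in rpb1-1, the 6 called in rpb1S751F were higher, and 3 were higher and 3 lower in rpb2-10. Called were 61.5%, 46.2% and 46.2%, beside 61.4%, 64.3% and 57% of all genes. MSH4 and MSH5 encode the partners of 1 complex that stabilises crossover intermediates. MSH4 fell in rpb1-1 (-1.27 ± 0.10) and MSH5 rose in rpb1S751F (1.59 ± 0.11). HFM1, the helicase of the same pathway also known as MER3, fell in rpb1-1 (-1.59 ± 0.14) and rpb2-10 (-1.03 ± 0.14). ECM11, which acts in assembly of the synaptonemal complex, rose in rpb1S751F by 2.80 ± 0.10 (adjusted p = 2.88e-10), and NDJ1, a telomere protein of meiotic prophase, rose in rpb2-10 by 1.17 ± 0.20. NDJ1 fell in rpb1-1 (-1.06, and -0.64 at its smallest under the alternatives).

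Among 9 upstream entry regulators, 4 were higher in rpb1-1, 8 were higher in rpb1S751F, and 1 was higher and 5 lower in rpb2-10. That is 44.4%, 88.9% and 66.7% called, beside 61.4%, 64.3% and 57% of all genes. MCK1, a kinase that promotes IME1 expression, rose in both RPB1 mutants (0.75 ± 0.13 and 0.81 ± 0.13). RIM101, the transcription factor of the alkaline response pathway that favours entry, rose in rpb1-1 (0.61 ± 0.11) and fell in rpb2-10 (-0.99 ± 0.11). RIM101 also rose in rpb1S751F (0.51, and 0.29 at its lowest under the alternatives). RIM15, the nutrient-regulated kinase that relieves repression by Ume6, rose in rpb1S751F (0.67 ± 0.07) and fell in rpb2-10 (-0.43 ± 0.07). The list also holds RME1, a repressor of entry, which moved in the same directions (0.52 in rpb1S751F and -0.54 in rpb2-10). The largest rise of the list in rpb1S751F was that of SLZ1 (1.84).

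Of 9 genes for repressors of meiotic genes, 1 was higher and 4 lower in rpb1-1, 2 higher and 4 lower in rpb1S751F, and 6 were lower in rpb2-10. The shares called, 55.6%, 66.7% and 66.7%, stand beside 61.4%, 64.3% and 57% of all genes. SUM1 encodes the DNA-binding repressor of middle genes, and Rfm1 links it to the deacetylase Hst1. SUM1 fell in all 3 mutants, with log2 fold changes of -0.75 ± 0.08, -0.69 ± 0.08 and -0.28 ± 0.08, as did RFM1 with -0.34 ± 0.08, -0.71 ± 0.08 and -0.54 ± 0.08 (the last -0.36 re-scaled). HST1 fell in rpb1S751F (-0.41 ± 0.08) and rpb2-10 (-0.51 ± 0.08). RPD3, the deacetylase of the Ume6 complex, rose in rpb1S751F (0.40 ± 0.05).

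Ume6 also represses genes outside meiosis, and of 8 such genes 3 were higher and 2 lower in rpb1-1, 5 and 1 in rpb1S751F, and 2 and 3 in rpb2-10. Of this list 62.5%, 75% and 62.5% were called, beside 61.4%, 64.3% and 57% of all genes. POT1, the thiolase of peroxisomal fatty acid oxidation, rose by 1.51 ± 0.17 in rpb1-1 and 2.97 ± 0.17 in rpb1S751F. In rpb2-10 POT1 was called lower (-0.54, and -0.30 at its smallest under the alternatives). CAR2, which encodes the ornithine transaminase of arginine breakdown, rose in all 3 mutants (0.94 ± 0.17, 1.18 ± 0.17 and 1.12 ± 0.17). INO1, the enzyme that starts inositol synthesis, fell in rpb2-10 (-1.91 ± 0.25) and was called higher in rpb1S751F (0.83). OPI3, of phosphatidylcholine synthesis, fell in rpb1-1 (-1.20 ± 0.10) and, by less, in rpb1S751F (-0.59) and rpb2-10 (-0.49).

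The genes next to the members that changed by at least 1 log2 unit were also read. In rpb1-1, the 11 such members had 19 measured neighbours, of which 7 changed in the member's direction, 4 in the opposite one and 8 were not called. In rpb1S751F, 9 members had 18 neighbours, of which 5, 5 and 8 did so, and in rpb2-10, 8 members had 14, of which 4, 1 and 9 did so. The called neighbours were 57.9%, 55.6% and 35.7%, beside 61.4%, 64.3% and 57% of all genes, so being called was no more frequent among them. HOP1 and SPO22 lie head to head: in rpb1-1 HOP1 was lower (-1.47) and SPO22 slightly higher (0.38, the call that single arrays decided). SGA1 lies head to head with XBP1, a stress-induced repressor gene, which rose in rpb1-1 (2.66) and rpb1S751F (1.54) and fell in rpb2-10 (-1.35). Downstream of DMC1, ISC10 was called lower in rpb1-1 (-1.05), rpb1S751F (-0.70) and rpb2-10 (-0.78), against the direction of DMC1.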

How the data were processed

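Total RNA (RNeasy Midi kit) was labelled by the one-cycle Affymetrix protocol, per the labels' protocols, and read on 1 array per sample. The authors deposited 1 table of log2 expression levels; the submitters' processing notes name RMA and limma, with no version or role, and array medians differ between mating types, so comparisons between them were avoided. No genome build is given in the sources used here, and a RefSeq table served only for gene names and neighbours. Of 10928 probe sets, 5498 named 1 S. cerevisiae gene, and the brightest per gene gave 5449 genes. The 45 members and the other gene lists were chosen by name with earlier results of these data known, so no list was tested as a whole.

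The 15 arrays entered a single limma 3.58.1 model in R 4.3.3, with 1 coefficient for each group (10 residual and 2.98 prior degrees of freedom). This model gives a gene the same variance in all groups. The median SD over all genes was 0.11 to 0.13 in the alpha groups but 0.07 in the a groups. With the mating types fitted apart, 2932, 2974 and 3877 genes were called in rpb1-1, rpb1S751F and rpb2-10. In the joint fit these numbers were 3348, 3503 and 3105, so the mutants cannot be ranked by their calls. Tests were two-sided, with Benjamini-Hochberg adjustment over all genes. The effects of RPB1 and RPB2 alleles were contrasted in the same fit. The fitting code was run on simulated data. There a small part of the genes changed, in rpb1-1 only, and all groups had the same spread. The real arrays differ in both respects, so this tested the code only. Where a group was at background on all arrays, a fold is given as a bound: the brighter group's mean against, in the dim group, the higher of the array's 95th percentile of other-species probe sets and the gene's own level. Arrays limit the precision by their number, 3 per group. The replicates are labelled biological, with nothing said of separate cultures, so p-values measure the spread between these samples. Same-numbered replicates did not deviate together in all pairs (correlations from -0.31 to 0.48 between a mutant and its wild type), so the numbers were not taken as pairs.

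Named genes are the 5 regulators, the up to 8 members with the largest called rise and fall per comparison, the 3 brightest and 3 dimmest, members at background in 1 group, up to 3 called genes of each list, and neighbours; the remaining members were added after their values were seen, to account for all 45. Alternatives were other scalings, filters, thresholds, variance models, arrays fitted apart, a replicate block and each array left out.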

Additional observations from a re-analysis of the deposited data

Results flagged for a closer look

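The effects of the RNA polymerase II alleles differed for part of the 45 genes, by a test of the difference itself in limma's fit. Between rpb1S751F and rpb1-1 the difference was called for 32 genes, 71.1% beside 56.6% of all genes. The 8 that were called in opposite directions against WT1B had fitted log2 differences of 3.42 (CDA1), 3.24 (SPO1), 3.03 (DIT1), 2.47 (SPO11), 2.37 (SPS2), 1.84 (SPO74), 1.55 (DIT2) and 0.89 (REC8). All 8 were higher in rpb1S751F, on every array. In rpb1-1, CDA1, SPO11, SPS2, DIT2 and SPO74 were at background, so their measured differences were at least 6.50-fold, 3.86-fold, 3.72-fold, 2.27-fold and 2.20-fold. After quantile normalization within the mating type, the fitted values were 1.13 for SPO74, 0.74 for DIT2 and 0.13, not called, for REC8.

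Between the effects of rpb1-1 and rpb2-10, 27 differences were called, 60% beside 56.7% of all genes, so the count was near that of genes in general. Among genes called in opposite directions, those with the higher effect in rpb1-1 were RIM4 (3.52), SSP2 (3.46), SPS100 (2.65), IME2 (1.84) and SPO22 (1.48). Those with the higher effect in rpb2-10 were DIT1 (-2.58), SPO1 (-2.48), SPO74 (-1.77) and SPS2 (-1.07, or -0.83 after quantile normalization within each mating type). SPO74 and SPS2 were at background in rpb1-1, and SPS2 also on all WT1A arrays and all but 1 of the rpb2-10 arrays, so their fitted values are not measured sizes.

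Between the effects of rpb1S751F and rpb2-10, 23 differences were called, 51.1% beside 51.7% of all genes, again near the share of genes in general. The genes called in opposite directions were SGA1 (3.18), IME2 (2.56), SSP2 (2.53), RIM4 (2.32), SPO22 (1.44), ZIP2 (1.32) and REC102 (0.75), all with the higher effect in rpb1S751F. The REC102 difference was lost after quantile normalization within each mating type (-0.0028), and those of ZIP2 and SPO22 became 0.59 and 0.68. RPB2 and mating type cannot be told apart in the last 2 contrasts.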

How the results depend on the processing

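The number of the 45 genes called stayed within 1.5 times the reported count under the other scalings, filters, variance models and with each array left out. The exceptions were stricter thresholds: at 1 log2 unit or more the counts were 11 (rpb1-1), 9 (rpb1S751F), 8 (rpb2-10), 16 (between the RPB1 alleles), 17 (rpb1-1 effect minus rpb2-10 effect) and 11 (rpb1S751F effect minus rpb2-10 effect), and 15, 11 and 3 among the other pathway genes in the 3 mutants. At an adjusted p below 0.01, 15 were called in rpb2-10. Leaving out 1 array gave 25 to 30 calls in rpb1-1, 22 to 27 in rpb1S751F, 19 to 22 in rpb2-10, 28 to 32 between the alleles, and 23 to 30 and 19 to 25 for the differences in effect. For the other pathway genes it gave 39 to 42, 39 to 43 and 25 to 30.

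With the replicate number as a block the counts were 29, 25 and 23 in the 3 mutants, and the 1 reported call of a named member it lost was SPO22 in rpb1S751F (adjusted p = 0.0598). Quantile normalization of all 15 arrays together, or within each mating type, turned the sign of small values. These were IME1 in rpb1-1 (0.12 and 0.13) and in rpb1S751F (-0.19 and -0.20), NDT80 in rpb2-10 (0.16 both ways), and, in rpb1S751F, SPO11 (-0.17 and -0.16), REC102 (-0.032 and -0.031), REC8 (-0.00048 and -0.00084) and SPO22 (-0.078 and -0.080). The REC102 difference in effect between rpb1S751F and rpb2-10 became -0.0079 and -0.0028. UME6 in rpb1S751F turned with array weights (-0.053) and over single arrays left out (from -0.041, without WT1B replicate 3, to 0.106; -0.010 without rpb1S751F replicate 2), and IME1 in rpb1-1 over single arrays left out (from -0.077 to 0.0052, the latter without rpb1-1 replicate 1). With array weights IME1 (0.13) and NDT80 (-0.19) were called in rpb2-10. Some calls were also lost under alternatives not named with their gene. Fitted apart, these were ZIP1 in rpb1-1 (adjusted p = 0.0605) and SPO22 in rpb1S751F (0.0674). Centring on the median gene lost MND1 and REC104 in rpb2-10 (0.077 and 0.0641). Array weights lost ZIP1 and SPO22 in rpb1-1 and REC8 and SPO22 in rpb1S751F. A variance trend with intensity lost HOP2 and MEI5 in rpb1S751F and MND1 in rpb2-10. The cause was not tested. Of 2259 recomputed values of named genes with all arrays kept, 2179 had the reported direction and side of the threshold. Several alternatives, such as the replicate block, the fits apart and the filter on dim genes, leave a gene's fold change as it is. Agreement in direction was fixed in advance there, and only the call could change. With 1 array left out, 1266 of 1338 values stayed the same, 68 lost their call and 3 changed direction. Members with signal near background, MEI5 and SAE3 in every group, give no measured level at this signal.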
